A study of Mus musculus with 1 sample.

Results

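The 10 genes Hk1, Hk2, Pfkp, Pfkm, Aldoa, Aldoc, Tpi1, Pkm, Ldha and Ldhb encode enzymes of glycolysis and of lactate formation. They were chosen by symbol, not by their levels, from the 51912 genes listed in the UMI table. Earlier results of these data were known at that choice. All 10 had UMIs, 98288 in all, or 0.113% of the UMIs without mitochondrial genes. They were examined by sc-RNA Seq of 1 library made from cerebral cortex of WT C57BL/6 mice at P0, the day of birth. No treatment is named in the labels, and the number of animals behind the library is not given in the sources used here. The knock-in mice and the triplicates that the design text names were not analysed here. With 1 library there was no replicate and no test, and the 95% intervals in brackets cover counting error only.

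Glycolysis breaks glucose down to pyruvate, and lactate dehydrogenase interconverts pyruvate and lactate. Several steps can be carried out by products of different genes, the isoforms, which differ in regulation and in the cells that make them. In brain, Hk1 is known as the general hexokinase and Hk2 as the inducible one, Aldoc (zebrin II) as an aldolase of astrocytes and of certain Purkinje cells, and Ldha and Ldhb as the subunits that mix in the lactate dehydrogenase tetramer. Ldha-rich tetramers are usually linked to lactate production and Ldhb-rich tetramers to lactate use.

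To ask which isoform each cell group carried, cells were sorted by marker UMIs, and no marker was one of the 10 genes. Of 11062 cells, 8447 had at least 2000 UMIs without mitochondrial genes and were gated. The gates gave 338 radial glia or astrocyte-like cells outside division (below, RG/astro-like), 142 dividing progenitor-like cells and 124 oligodendrocyte precursor-like cells (OPC-like). They also gave 226 newborn excitatory-like cells with Eomes and related markers, 366 inhibitory neuron-like cells and 6376 excitatory neuron-like cells. Among the excitatory cells, 3830 were upper layer-like, 159 layer V-like, 718 layer VI-like and 48 layer VIb-like, and 1621 were left without a layer. The median number of markers detected was 8 of 9 in RG/astro-like cells, 8 of 10 in dividing cells, 5.5 of 6 in OPC-like cells, 3 of 5 in newborn cells, 6 of 10 in inhibitory cells and 4 of 6 in excitatory cells.

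The library held 90346034 UMIs, with a median of 7196.5 per cell. The median depth without mitochondrial genes ran from 5026.5 UMIs in inhibitory cells to 10571.5 in dividing cells among the main classes, and was 7249 in RG/astro-like and 9231 in excitatory cells. Levels are UMIs summed over a group and scaled to the group's UMIs without mitochondrial genes (CPM). A UMI marks 1 captured transcript of any length, so CPM values of different genes compare captured molecules, as far as capture was alike.

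Aldoc was the gene with the sharpest pattern, at 1703 CPM (1652 to 1755) in RG/astro-like cells against 2.70 CPM (2.32 to 3.12) in excitatory cells. Hk1 and Pfkp were lower in RG/astro-like than in excitatory cells, while Ldhb was higher and Ldha was alike. Within the excitatory cells the lactate dehydrogenase isoforms differed between groups, from mostly Ldhb in newborn and upper-layer cells to mostly Ldha in layers V, VI and VIb. Upper-layer cells without a UMI of Igfbpl1, a gene of young neurons, had an Ldhb share of 48.3%. The parts of layer and of neuron age in these differences were not tested. The plot of levels by group shows all 10 genes.

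**Figure D1:**
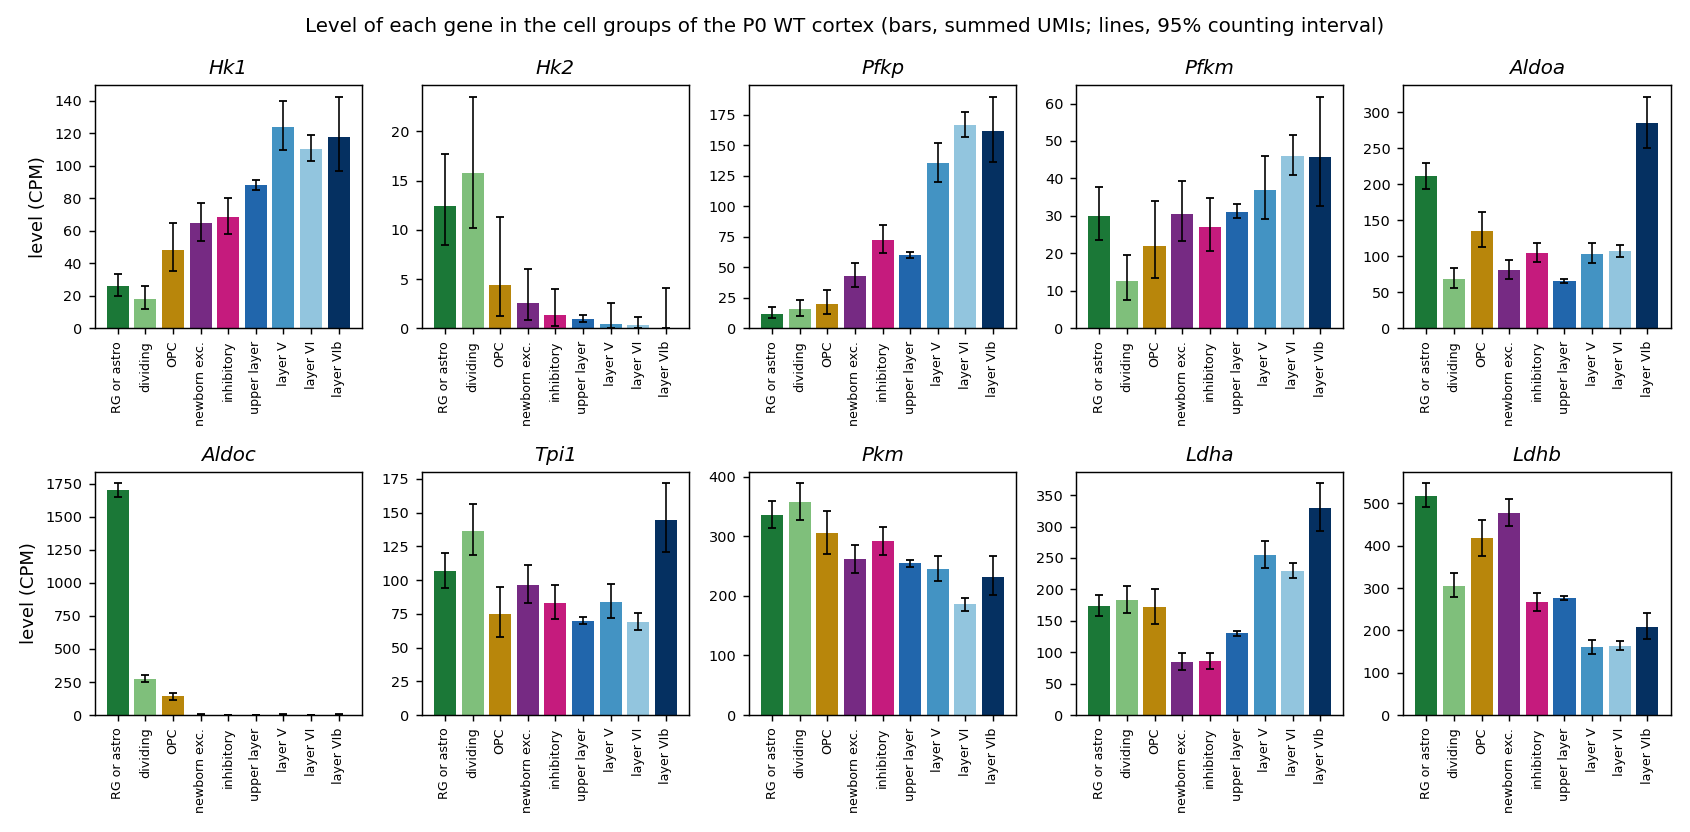
Level of each of the 10 genes (y axis, CPM from summed UMIs, each panel with its own scale from 0) in 9 cell groups (x axis; RG or astro, radial glia or astrocyte-like; OPC, oligodendrocyte precursor-like; exc., excitatory), with lines for the exact Poisson 95% interval. Aldoc is above 100 CPM in the first 3 groups alone, Hk1 and Pfkp are lowest in those groups, and Ldha and Ldhb run in opposite directions from newborn to deep-layer cells.

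Hexokinase phosphorylates glucose and so keeps it in the cell. Hk1 was at 26.1 CPM (20.1 to 33.2) in RG/astro-like cells, 17.8 (11.7 to 25.9) in dividing cells and 48.3 (35.1 to 64.9) in OPC-like cells. It was at 64.6 CPM (53.7 to 76.9) in newborn, 68.5 (58.0 to 80.4) in inhibitory, 88.0 (84.9 to 91.1) in upper-layer, 124 (109 to 140) in layer V, 111 (103 to 119) in layer VI and 118 (96.5 to 143) in layer VIb cells. Hk1 was thus higher in each neuron group than in RG/astro-like or dividing cells, with no overlap of intervals. The 3 deep-layer groups could not be ordered, since the interval of each ratio between neighbours held 1, and the same was true of RG/astro-like against dividing, inhibitory against newborn, and newborn against OPC-like cells.

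Hk2 had 161 UMIs in all 11062 cells and was highest in the groups where Hk1 was lowest. It was at 15.8 CPM (10.1 to 23.5, 24 UMIs) in dividing cells and 12.4 CPM (8.45 to 17.6, 31 UMIs) in RG/astro-like cells. The OPC-like cells had 4.39 CPM (1.20 to 11.2), the newborn cells 2.58 (0.838 to 6.03) and the inhibitory cells 1.37 (0.283 to 4.005). Layers V, VI and VIb held 1, 2 and 0 Hk2 UMIs. Of neighbouring groups in the order of Hk2 levels, only RG/astro-like and OPC-like cells differed beyond counting error, and narrowly (2.83-fold, 1.001 to 11.04). Neighbouring neuron groups thus could not be ordered, which says nothing of groups further apart in the order. Excitatory cells had 0.746 CPM (0.554 to 0.983, 50 UMIs), so that RG/astro-like cells were 16.7-fold higher (10.3 to 26.6). After each cell was thinned to 2000 UMIs, 3.25% of RG/astro-like cells and 0.157% of excitatory cells held an Hk2 UMI (8.88% and 0.737% before thinning).

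Taken as a pair, Hk2 made up 32.3% (23.1 to 42.6) of the Hk1 and Hk2 UMIs in RG/astro-like cells and 47.1% (32.9 to 61.5) in dividing cells. The share was 8.33% (2.32 to 19.98) in OPC-like, 3.85% (1.26 to 8.75) in newborn, 1.96% (0.406 to 5.62) in inhibitory and 0.750% (0.557 to 0.987) in excitatory cells. The Hk2 to Hk1 ratio of RG/astro-like cells was 63.1 times (36.4 to 108) that of excitatory cells, and 41.3 times when cells with markers of 2 classes were given to one of them. Both isoforms contributed to this contrast, with Hk1 in RG/astro-like cells at 0.264-fold (0.204 to 0.337) its excitatory level.

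Phosphofructokinase carries out the committed step of glycolysis. Pfkp, the platelet-type isoform, was at 12.03 CPM (8.12 to 17.2) in RG/astro-like, 15.8 (10.1 to 23.5) in dividing and 19.8 (11.7 to 31.2) in OPC-like cells. It was at 42.9 CPM (34.1 to 53.1) in newborn, 72.6 (61.8 to 84.8) in inhibitory, 60.1 (57.6 to 62.7) in upper-layer, 135 (120 to 152) in layer V, 167 (157 to 177) in layer VI and 161 (136 to 190) in layer VIb cells. The first 3 groups could not be told apart, and all 3 lay below each neuron group.

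Pfkm, the muscle-type isoform, varied little beside Pfkp. It was at 30.1 CPM (23.7 to 37.7) in RG/astro-like, 22.0 (13.4 to 33.9) in OPC-like, 30.5 (23.2 to 39.3) in newborn, 27.0 (20.5 to 34.8) in inhibitory and 31.2 (29.3 to 33.1) in upper-layer cells. Dividing cells had the lowest value, 12.5 CPM (7.54 to 19.5), and layer VI cells the highest, 46.0 CPM (41.0 to 51.5). In the order of levels, no group differed from its neighbour beyond counting error.

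The Pfkm share of the pair was 71.4% (61.8 to 79.8) in RG/astro-like, 52.6% (35.8 to 69.0) in OPC-like, 44.2% (29.1 to 60.1) in dividing, 41.5% (33.3 to 50.1) in newborn and 27.1% (21.3 to 33.5) in inhibitory cells. It was 34.1% (32.5 to 35.8) in upper-layer cells and 21.4%, 21.6% and 22.0% in layers V, VI and VIb. The Pfkm to Pfkp ratio of RG/astro-like cells was 7.21 times (4.65 to 11.4) that of excitatory cells, and 4.54 times when cells with markers of 2 classes were given to one of them. With the liver-type gene Pfkl added, the step summed to 65.8 CPM (56.1 to 76.7) in RG/astro-like and 156 CPM (153 to 159) in excitatory cells.

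**Figure D2:**
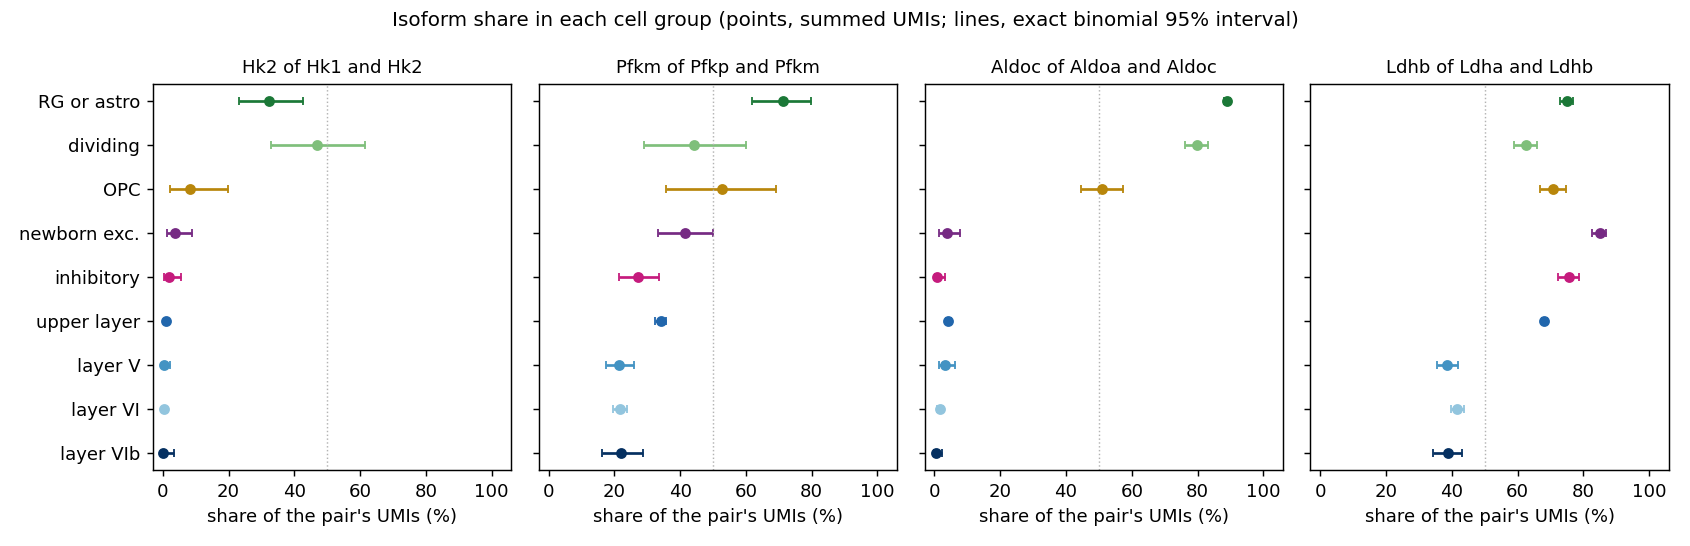
Share of the second-named isoform in the UMIs of each pair (x axis, percent) in 9 cell groups (y axis), as points with exact binomial 95% intervals and a dotted line at 50%. The Aldoc share is 89.0% in RG/astro-like cells, 50.996% in OPC-like cells and under 5% in every neuron group shown, and the Ldhb share is 84.9% in newborn and 38.6% in layer V cells.

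Aldolase splits fructose bisphosphate into triose phosphates. Aldoc was at 1703 CPM in RG/astro-like, 272 CPM (246 to 300) in dividing and 141 CPM (117 to 167) in OPC-like cells, each step in this order being larger than counting error. It was at 3.099 CPM (1.14 to 6.74) in newborn, 0.914 (0.111 to 3.30) in inhibitory, 2.83 (2.31 to 3.45) in upper-layer, 3.26 (1.31 to 6.72) in layer V and 1.68 (0.837 to 3.0004) in layer VI cells. In the order of levels, no neighbours among these neuron groups differed beyond counting error. An Aldoc UMI was found in 88.5% (84.6 to 91.7) of RG/astro-like and 2.70% (2.31 to 3.12) of excitatory cells, or 81.4% and 0.518% after thinning.

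The Aldoc level of excitatory cells was 0.159% (0.136 to 0.184) of that of RG/astro-like cells. Mt3 and Apoe, which are genes of astrocytes and used in no gate, stood at 0.318% and 0.296% in the same measure. The Aldoc UMIs of neurons were thus no more frequent, relative to RG/astro-like cells, than those of these glial genes. Their source was not tested, and every Aldoc fold against neurons rests on them. Of other listed glial genes, Dbi stood at 1.08%, Ddah1 at 3.15% and Ptprz1 at 5.14%.

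Aldoa, the isoform of most tissues, was at 211 CPM (194 to 230) in RG/astro-like, 135 (112 to 161) in OPC-like and 68.5 (56.0 to 83.02) in dividing cells. Its neuron levels ran from 65.5 CPM (62.9 to 68.2) in upper-layer cells through 80.6 (68.4 to 94.3) in newborn, 103 (90.3 to 118) in layer V, 105 (91.5 to 119) in inhibitory and 107 (99.2 to 115) in layer VI to 285 (251 to 322) in layer VIb cells. Layer VIb cells were the highest of all these groups, and their 256 Aldoa UMIs came from 48 cells with a median depth of 18681.5 UMIs, the deepest of the 9 groups. RG/astro-like cells were 2.49-fold (2.27 to 2.72) above excitatory cells.

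Aldoc made up 89.0% (88.0 to 89.8) of the aldolase pair in RG/astro-like, 79.9% (76.2 to 83.3) in dividing, 50.996% (44.6 to 57.3) in OPC-like, 3.70% (1.37 to 7.89) in newborn and 3.08% (2.66 to 3.56) in excitatory cells. The Aldoc to Aldoa ratio of RG/astro-like cells was 253 times (212 to 303) that of excitatory cells. Among 262 RG/astro-like cells with at least 5 UMIs of the pair, the median Aldoc share was 91.7% (quartiles 84.2% and 99.4%). More Aldoc than Aldoa was seen in 96.6% of them. The group held 4245 Aldoc and 527 Aldoa UMIs, so cells passed this limit mainly through Aldoc. The shares of these cells are therefore no separate support for the pattern. After thinning, 28.1% of RG/astro-like cells held UMIs of both, 53.3% of Aldoc alone and 4.44% of Aldoa alone. The aldolase step as a whole was at 1914 CPM (1860 to 1969) in RG/astro-like and 88.1 CPM (85.9 to 90.4) in excitatory cells.

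Triosephosphate isomerase (Tpi1) and pyruvate kinase (Pkm) have no partner among the 10 genes. Their levels spanned the smallest ranges over the 9 groups, taken as the fold between the highest and the lowest level. Tpi1 ran from 68.9 CPM (62.7 to 75.6) in layer VI to 136 (118 to 156) in dividing and 145 (121 to 172) in layer VIb cells, and was at 107 (94.3 to 120) in RG/astro-like cells. Pkm, whose product makes pyruvate, ran from 186 CPM (175 to 196) in layer VI to 358 (328 to 389) in dividing cells, and was at 336 (314 to 360) in RG/astro-like, 305 (270 to 343) in OPC-like, 291 (269 to 315) in inhibitory and 255 (249 to 260) in upper-layer cells. In the order of Pkm levels, no neighbouring groups above layer VI differed beyond counting error. The Pkm splice forms, which differ in regulation, share their 3′ end and cannot be separated in these counts.

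Lactate dehydrogenase stands at the branch from pyruvate to lactate. The sequence around the start of Ldha and of Ldhb is shown, from 250 bases before to 50 bases after the first-listed start in RefSeq (GRCm38.p6). Capitals mark ACGTG on either strand, a form of the core of the hypoxia response element. ACGTG also lies within the E-box CACGTG, and overlapping matches are joined. The form GCGTG was neither marked nor counted, and it occurs in both windows.
Ldha, chr7:46845554-46845853, plus strand: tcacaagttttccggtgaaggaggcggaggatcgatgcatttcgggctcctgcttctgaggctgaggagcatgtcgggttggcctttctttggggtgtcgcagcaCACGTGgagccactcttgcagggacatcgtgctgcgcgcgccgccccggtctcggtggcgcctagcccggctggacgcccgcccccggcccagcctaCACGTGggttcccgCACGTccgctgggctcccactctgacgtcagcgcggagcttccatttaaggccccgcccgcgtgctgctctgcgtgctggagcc
Ldhb, chr6:142507908-142508207, minus strand: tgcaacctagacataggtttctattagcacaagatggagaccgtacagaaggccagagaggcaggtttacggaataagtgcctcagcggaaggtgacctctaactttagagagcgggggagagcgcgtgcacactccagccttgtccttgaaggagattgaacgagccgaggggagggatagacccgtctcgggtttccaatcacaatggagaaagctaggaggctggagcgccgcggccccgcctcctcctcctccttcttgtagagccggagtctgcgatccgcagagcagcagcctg

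The Ldha window held 3 stretches with ACGTG and the Ldhb window held 0. Of 32851 windows of the same length, 19.6% held the motif, and 0.414% held at least as many stretches as the Ldha window. All 10 genes had a window, 19 in all, and 9 of the 19 windows, from 7 genes, held the motif. The Aldoa windows with the motif overlap each other, as do some Pfkm windows, so the 19 are not all separate. A match is a description of the letters only, and the second listed start of Ldha had 0 stretches. Pfkp had 0 stretches in its window, and the Pfkm windows had 2, 1, 0 and 0. A relation between the motif and the levels was not tested.

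Ldhb was at 519 CPM (491 to 548) in RG/astro-like and 478 CPM (447 to 510) in newborn cells, which could not be told apart. It was at 417 CPM (376 to 461) in OPC-like, 306 (279 to 335) in dividing, 276 (271 to 282) in upper-layer and 266 (245 to 289) in inhibitory cells. Layer V had 160.3 CPM (144 to 178), layer VI 164 (155 to 174) and layer VIb 208 (179 to 240). Ldhb was therefore high at the glial and newborn end and low in the deep layers.

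Ldha was at 174 CPM (158 to 191) in RG/astro-like, 183 (162 to 206) in dividing and 171 (145 to 200) in OPC-like cells, with no difference beyond counting error among the 3. It was lowest in newborn, 84.7 CPM (72.2 to 98.7), and inhibitory cells, 85.9 (74.0 to 99.1). It was at 129.9 CPM (126 to 134) in upper-layer, 229 (218 to 241) in layer VI, 255 (234 to 278) in layer V and 329 (293 to 369) in layer VIb cells. Ldha thus had its lowest and its highest levels among neurons, with the glial groups between them.

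Ldhb made up 84.9% (82.7 to 87.0) of the pair in newborn, 75.6% (72.4 to 78.6) in inhibitory, 74.9% (72.8 to 76.9) in RG/astro-like, 70.9% (66.8 to 74.7) in OPC-like, 68.0% (67.3 to 68.8) in upper-layer and 62.5% (58.9 to 66.0) in dividing cells. It made up 38.6% (35.4 to 41.8) in layer V, 41.7% (39.8 to 43.6) in layer VI and 38.7% (34.3 to 43.2) in layer VIb, where Ldha was the larger part. The Ldhb to Ldha ratio of RG/astro-like cells was 2.25 times (2.01 to 2.52) that of excitatory cells, the smallest contrast of the 4 pairs. Summed over both genes, lactate dehydrogenase was at 692 CPM (660 to 726) in RG/astro-like, 562 (530 to 597) in newborn, 406 (400 to 413) in upper-layer, 416 (389 to 444) in layer V, 394 (379 to 409) in layer VI and 537 (490 to 587) in layer VIb cells. Upper-layer cells and layers V and VI thus had sums close to each other, and layer VIb had a higher one.

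The order was similar in single cells that passed a limit of 5 UMIs of the pair. Such a limit favours the isoform that is higher in a group, and the UMIs of these cells are part of the same sums. The shares of these cells are therefore no separate support for the order. Among cells with at least 5 UMIs of the pair, the median Ldhb share was 81.8% in 173 RG/astro-like, 85.7% in 105 newborn, 66.7% in 1245 upper-layer, 40% in 75 layer V and 40% in 214 layer VI cells. The quartiles were 60% and 100% in RG/astro-like and 50% and 83.3% in upper-layer cells. With as few as 5 UMIs per cell, counting error alone spreads such shares, so differences between cells cannot be read from them. More Ldhb than Ldha was seen in 96.2% of these newborn cells and in 30.8% of these layer VI cells.

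To set the 10 genes against the rest of the transcriptome, genes with a mean of at least 10 CPM over both groups were compared, and a fold of at least 2, after 10 CPM was added to both sides, was called. RG/astro-like cells had 3 genes higher than excitatory cells (Aldoa, Aldoc, Ldhb) and 2 lower (Hk1, Pfkp) among the 9 of the 10 genes that could be compared, where 15.5% of 9617 genes were higher and 13.1% lower. The median log2 fold of the 9 genes was 0.46, beside 0.03 over all genes compared. When dividing radial glia were counted with the RG/astro-like cells, Hk1, Pfkp and Aldoc were called, and Aldoa and Ldhb were not. Hk2 was too low to be compared in this way. Folds printed with an interval are CPM ratios without the added 10 CPM, so some beyond 2-fold were not called. Aldoc had a log2 fold of 7.08 on this scale, and Ldha had -0.02.

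Of 39 other genes of glucose uptake, glycolysis, lactate transport and pyruvate entry, 20 could be compared between RG/astro-like and excitatory cells. Of these, 5 were called higher and 1 lower, with a median log2 fold of 0.40. The higher ones were the glucose transporter Slc2a1 (23.7 against 3.92 CPM), the enolase Eno1 (301 against 111), the pyruvate dehydrogenase kinases Pdk2 (26.1 against 5.39) and Pdk4 (24.5 against 0.0298, the latter from 2 UMIs), and pyruvate carboxylase Pcx (90.6 against 4.55). The lower one was Pfkfb4 (4.01 against 27.1 CPM), which sets the level of an activator of phosphofructokinase. Of 13 hypoxia-inducible genes outside glycolysis, 10 could be compared and Vegfa, Egln3 and Ddit4 were called higher and Ndrg1 lower, while their summed level was 821 CPM in RG/astro-like and 542 CPM in excitatory cells.

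Other signals differed between the same cells. The 9 immediate early and heat shock genes summed to 2954 CPM in RG/astro-like, 1639 in dividing, 1728 in OPC-like and 302 in excitatory cells, and 6 of the 7 that could be compared were called higher in RG/astro-like than in excitatory cells. Jun was the highest of them in RG/astro-like cells, at 1024 CPM. Haemoglobin genes summed to 1488 CPM in RG/astro-like and 17.7 CPM in excitatory cells, and 99.8% of the former lay in 5 cells. Without cells holding at least 5 haemoglobin UMIs, the same 5 genes were called. The part of the immediate early genes and of depth in the differences was not tested.

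**Figure D3:**
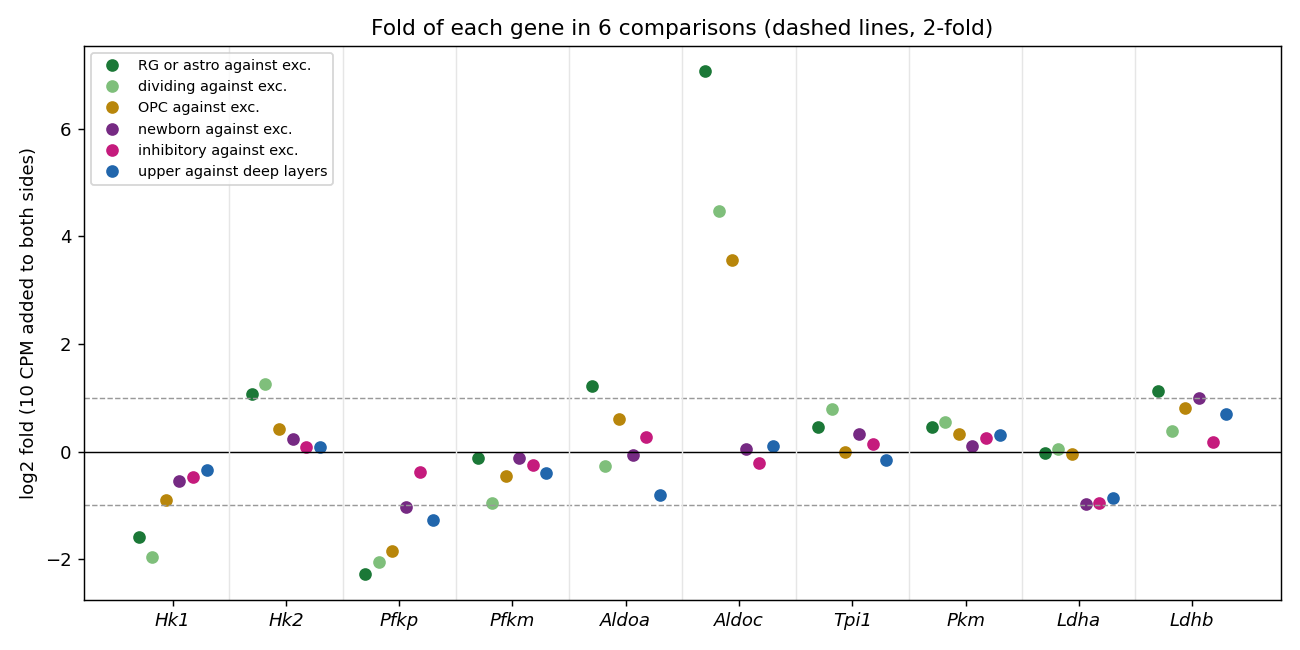
Log2 fold of each of the 10 genes (y axis, 10 CPM added to both sides) in 6 comparisons (colours; RG or astro, radial glia or astrocyte-like; OPC, oligodendrocyte precursor-like; exc., excitatory), with dashed lines at 2-fold. Aldoc reaches 7.08 in RG/astro-like cells, Pfkp lies below 0 in all 6 comparisons, and Pkm lies above 0 in all 6 without reaching 2-fold.

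The other groups were compared with the same excitatory cells, so these comparisons share that group. Dividing cells had 1 of 9 genes called higher (Aldoc, 101-fold with an interval of 84.4 to 121) and 2 lower (Hk1, Pfkp), where 14.3% of genes were higher and 12.7% lower. OPC-like cells had Aldoc higher (52.1-fold, 41.2 to 65.7) and Pfkp lower (0.203-fold, 0.1202 to 0.321) among 9, where 10.7% were higher and 9.53% lower. With 9 genes, nothing is read from these counts against the shares over all genes. Pfkp was called lower in each of the 3 glial and progenitor groups, and Aldoc higher.

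Newborn cells had 1 of 8 genes called higher (Ldhb, 2.04-fold, 1.91 to 2.18) and 1 lower (Pfkp, 0.440-fold, 0.350 to 0.546), where 3.66% of genes were higher and 3.2% lower. Both lie close to the limit, with log2 folds of 1.001 and -1.02, and Ldha lies just inside it at -0.97. Inhibitory cells had 0 of 8 genes called in either direction, where 3.51% were higher and 3.3% lower. Ldha came nearest, at 0.488-fold (0.420 to 0.564) before 10 CPM was added to both sides. The Ldhb to Ldha ratio of inhibitory cells was 2.34 times (1.97 to 2.77) that of excitatory cells, while the Pfkm to Pfkp ratio was 1.07 times (0.777 to 1.46).

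Dividing cells were also set against RG/astro-like cells. Of 10 genes compared, Aldoc (0.160-fold, 0.144 to 0.177) and Aldoa (0.324-fold, 0.260 to 0.401) were called lower and 0 higher, where 5.5% of genes were higher and 4.81% lower. Ldhb was at 0.589-fold (0.529 to 0.656), Tpi1 at 1.28-fold (1.06 to 1.54), Pkm at 1.06-fold (0.954 to 1.19) and Hk2 at 1.27-fold (0.714 to 2.24). Pfkm was at 0.416-fold (0.237 to 0.696), and its ratio to Pfkp was 0.317 times (0.142 to 0.705) that of RG/astro-like cells. The pair ratio of Ldhb to Ldha was 0.559 times (0.463 to 0.675) and that of Aldoc to Aldoa 0.493 times (0.389 to 0.629) that of RG/astro-like cells.

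The dividing gate also took in cells that did not pass the radial glia gate. In the 94 dividing cells that passed the radial glia gate, Aldoc was at 377 CPM (341 to 415), Aldoa at 81.6 (65.6 to 100.5), Ldha at 216 (189 to 245), Ldhb at 322 (289 to 357) and Hk2 at 18.3 (11.2 to 28.3). Aldoc and Aldoa of these cells thus also lay below the RG/astro-like levels, with no overlap of intervals. Of the 39 other genes, 20 could be compared and Pfkfb3, Pdk1, Pdk2 and Pdk4 were called lower in dividing than in RG/astro-like cells. Of 9 immediate early and heat shock genes, 7 could be compared, and Fos, Fosb, Jun and Junb were called lower in dividing cells. Fos and Jun were at 302 and 325 CPM there, against 865 and 1024 CPM in RG/astro-like cells. Egr1 (690 against 646 CPM), Ier2 (217 against 227) and Dnajb1 (52.0 against 32.1) were not called. The part of these genes was not tested.

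Within the excitatory cells, upper-layer cells were compared with the 925 cells of layers V, VI and VIb. Pfkp was called lower in the upper layers (0.378-fold, 0.354 to 0.404) and 0 genes higher among 8, where 2.17% of genes were higher and 2.94% lower. Ldha was at 0.531-fold (0.505 to 0.558), Aldoa at 0.533-fold (0.497 to 0.573), Hk1 at 0.770-fold (0.719 to 0.826), Pkm at 1.25-fold (1.19 to 1.32) and Ldhb at 1.65-fold (1.57 to 1.74). The Ldhb to Ldha ratio of upper-layer cells was 3.11 times (2.89 to 3.35) and the Pfkm to Pfkp ratio 1.88 times (1.64 to 2.14) that of deep-layer cells. The median depth was 8267.5 UMIs in upper-layer and 9572 in deep-layer cells. The parts of depth and of neuron age in these differences were not tested. The 1621 excitatory cells without a layer were in neither set. Their Ldhb share was 46.9% (45.9 to 47.9) and their Pfkp level 130 CPM (125 to 135). The Ldhb to Ldha ratio of layer V was 0.877 times (0.748 to 1.03) that of layer VI. Pkm was at 1.32-fold (1.19 to 1.46), Ldha at 1.11-fold (1.01 to 1.23) and Pfkp at 0.811-fold (0.710 to 0.924) in layer V relative to layer VI.

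Upper-layer neurons are born late in the cortex. These cells were split into 3 parts of 1276 or 1277 cells by their level of Igfbpl1, a gene of young neurons. Such parts are ranges of a continuous level, not cell types. Ldhb was at 401 CPM (387 to 416) in the part with most Igfbpl1, 290.2 (281 to 300) in the middle part and 203.5 (196 to 211) in the part with least, while Ldha was at 81.5 (75.3 to 88.1), 109 (104 to 115) and 169.8 (163 to 176). The Ldhb share was 83.1% (81.9 to 84.3), 72.6% (71.3 to 73.9) and 54.5% (53.2 to 55.8). The share of the part with most Igfbpl1 lay close to that of newborn cells, and the part with least lay between newborn and deep-layer cells.

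Pfkp moved with Ldha, at 28.4 CPM (24.8 to 32.4), 38.4 (35.0 to 42.1) and 92.7 (87.9 to 97.6) from most to least Igfbpl1, while Pfkm stayed at 30.8, 31.6 and 31.0 CPM. Hk1 was at 67.9 (62.2 to 73.9), 86.7 (81.5 to 92.2) and 99.0 (94.1 to 104) CPM. Between the outer parts Pfkp alone was called lower (0.306-fold, 0.265 to 0.353) and 0 genes higher among 8, where 2.49% of genes were higher and 3.94% lower. Ldha at 0.480-fold (0.440 to 0.524) and Ldhb at 1.97-fold (1.88 to 2.07) lay just inside the limit once 10 CPM was added.

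Depth moved with the split, with medians of 6088, 8431 and 11564 UMIs per cell from most to least Igfbpl1. After thinning to 2000 UMIs, 14.8%, 17.9% and 25.9% of cells held an Ldha UMI and 52.0%, 46.1% and 33.1% an Ldhb UMI (36.9%, 55.1% and 77.1%, and 84.3%, 89.0% and 83.4%, before thinning). The Pfkp shares were 5.32%, 6.50% and 16.3% after thinning and 15.0%, 25.2% and 52.2% before. The order of the levels was thus also seen at equal depth. Other signals moved with the split too. Of the glial genes, Ptprz1 was at 555, 433 and 159 CPM, Mt3 at 21.1, 7.80 and 9.19 and Apoe at 17.8, 11.6 and 9.64 from most to least Igfbpl1, while Dbi was at 83.2, 85.4 and 105 and Ddah1 at 2.95, 3.104 and 5.91. Fos (11.3 against 65.3 CPM) and Egr1 (10.3 against 51.1 CPM) were called lower in the part with most Igfbpl1 than in that with least. Their part in the isoform differences was not tested. In the 406 upper-layer cells with 0 Igfbpl1 UMIs, the Ldhb share was 48.3% (45.8 to 50.7) and Pfkp was at 128 CPM (118 to 139).

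**Figure D4:**
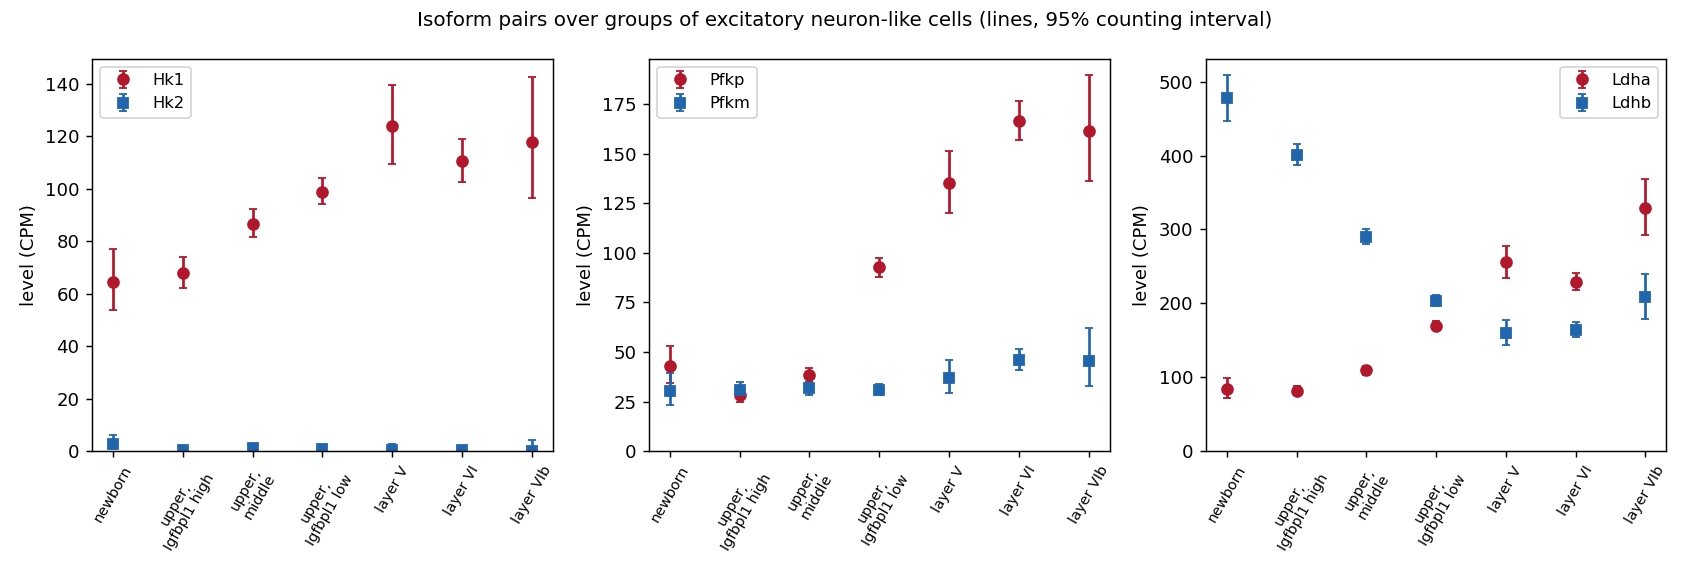
Levels (y axis, CPM from 0) of the hexokinase, phosphofructokinase and lactate dehydrogenase pairs in 7 groups of excitatory cells (x axis), newborn cells, upper-layer cells split by Igfbpl1, and layers V, VI and VIb, with exact Poisson 95% intervals. Ldhb is at 478 CPM in newborn and 203.5 CPM in Igfbpl1-low cells and Ldha at 84.7 and 169.8 CPM, Ldha is above Ldhb in the 3 deep-layer groups, and Pfkm lies between 30.5 and 46.0 CPM.

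The 215 excitatory cells with UMIs of Scg2, Npy and Fosl2 were set against the other excitatory cells. They had Pfkp at 173 CPM (158 to 188) against 93.8 (91.5 to 96.2) and Ldhb at 134 (121 to 148) against 238 (235 to 242), while Ldha was at 165 (151 to 180) against 177 (173 to 180). Their Ldhb share was 44.9% (41.6 to 48.2) against 57.5% (56.9 to 58.1). Of 8 genes compared, 0 were called higher and 0 lower, where 1.23% of genes were higher and 0.849% lower. The 9 immediate early and heat shock genes summed to 292 CPM in these cells against 303 CPM in the others. Of the 6 that could be compared, 0 were called higher and 0 lower. The median depth was 12341 UMIs in these cells against 9102, and the makeup by layer of the 2 sets was not compared.

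Over the 8 groups of at least 50 cells, log2 levels of Hk1 and Pfkp went together (Pearson r = 0.92) and those of Hk1 and Hk2 went apart (r = -0.97), while Ldha and Ldhb had r = -0.50. Among 7287 genes, those with the pattern closest to Aldoc were Tnfaip8, Hsd17b4 and S1pr1 (r = 0.999, 0.998 and 0.997), with 147, 268 and 147 CPM in RG/astro-like cells. Those closest to Ldhb were Lrp6, Zfp606 and Sgpl1 (r = 0.98, 0.96 and 0.96), and those closest to Ldha were 2900022M07Rik, 8030445P17Rik and Bbip1 (r = 0.94, 0.90 and 0.90). For Pfkm they were Sgip1, Clstn1 and Atad1 (r = 0.95 for each), and for Hk2 Fam91a1, E2f5 and Pnrc2 (r = 0.99, 0.99 and 0.98). Hk2 had 1 UMI in layer V and 2 in layer VI, so its r values, that with Hk1 included, rest on few counts. An r also says nothing of the size of a change. From layer VI to dividing cells Fam91a1 went from 25.8 to 48.8 CPM and Hk2 from 0.305 to 15.8 CPM. The genes named as closest are the highest in r among 7287 over only 8 groups. The r that chance alone gives was not tested. The groups share 1 library, so the r values are descriptions.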

How the data were processed

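sc-RNA Seq of the P0 WT cerebral cortex was analysed from the processed files. Per the labels and the study's methods, tissue was digested in papain and cells were captured with the 10x Chromium 3′ chemistry. The authors deposited raw UMI counts per gene and cell barcode, without normalization, and the total count of each cell, which equalled the sum in all 11062 cells. The submitters' processing notes name STAR, Cell Ranger 2, Seurat and mm9. How genes were annotated and barcodes called as cells is not given in the sources used here. No columns of other samples were present.

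From these counts, cells with at least 2000 UMIs without mitochondrial genes (3.90% of UMIs, still in the deposited table) were gated by how many markers of a list had a UMI. The number needed was set from the distribution of marker counts without using the level of any of the 10 genes. Cells that passed gates of 2 classes (288) or none (470) were left out, and no doublet caller was run. UMIs were summed per group on the CPM scale, with exact Poisson intervals for levels, exact Clopper-Pearson intervals for shares and conditional exact intervals for ratios. PCR copies were collapsed by UMI, and intervals cover counting error only. Calls and log2 folds had 10 CPM added to both sides. Folds printed with an interval are ratios of CPM without this addition. Cells were thinned to 2000 UMIs with a fixed seed for shares of cells. All 10 genes were named in every group. Other genes named include genes called in a comparison, the highest of a list, and the 3 most alike. The 3 most alike were taken in log2(CPM + 10) by Pearson r, among genes with a mean of at least 20 CPM. Called genes outside the 10 are not named for every comparison, so a comparison without such names may still hold some. The 10 genes and the lists were chosen with earlier results of these data known. Near copies had few UMIs (Aldoart1 1, Ldha-ps 1, Tpi-rs11 3, Hk1os 44). Python 3.11.15, numpy 2.4.6 and scipy 1.17.1 were used, and the calculations were tested on simulated data. Promoter windows are from RefSeq (GRCm38.p6), matched by symbol, and no coordinates are given in the authors' build.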

Additional observations from a re-analysis of the deposited data

How the results depend on the processing

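No paired analysis was possible because all groups were cells of a single WT library. Each pair ratio of RG/astro-like relative to excitatory cells, and the number of genes called between them (5), was recomputed under other gates, depths and weights, and 0 of these values turned in direction. The Hk2 to Hk1 ratio ran from 41.3 to 95.4 and stayed within its counting interval in 10 of 10 alternatives. When cells with markers of 2 classes were given to the class with more of its markers, the Pfkm to Pfkp ratio was 4.54 and the Aldoc to Aldoa ratio 188. The Ldhb to Ldha ratio was 1.80 when each cell weighed the same, 1.97 without the deepest cells (above the 95th percentile of UMIs) and 1.85 when dividing radial glia were counted with the others. In that last setting 3 genes were called (Hk1, Pfkp, Aldoc), and Aldoa and Ldhb were not. The alternative without haemoglobin-rich cells was chosen after seeing the data. Weighing cells equally took the Ldha level of excitatory cells from 176 to 149.6 CPM. Depth limits Hk2 above all, with 161 UMIs in the library, and small differences of Pfkm.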

Other observations

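A few small groups lay outside the comparisons. The 27 Cajal-Retzius-like cells had Aldoa at 710.4 CPM (639 to 788, 362 UMIs), Pfkp at 145 CPM (114 to 182) and Ldha at 290.5 CPM (246 to 341), with an Ldhb share of 40.6% (34.4 to 46.9). Aldoc had 0 UMIs there, with an exact Poisson upper bound of 7.24 CPM. The 10 microglia-like cells had Hk2 at 152 CPM (75.9 to 272, 11 UMIs in 4 cells) and 0 Hk1 UMIs, with an exact Poisson upper bound of 51.01 CPM, and Pkm at 802 CPM (609 to 1037). The 16 endothelial-like and 20 mural-like cells had Ldhb shares of 31.0% (20.5 to 43.1) and 32.5% (18.6 to 49.1), and 0 UMIs of Aldoc or Hk2.

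The 2615 cells under 2000 UMIs, with 19.4% mitochondrial UMIs, had Pfkp at 376 CPM (353 to 401), while Pfkm was at 31.5 CPM (24.95 to 39.3), Hk1 at 75.4 (65.0 to 87.0) and Ldha at 75.4 (65.0 to 87.0). The 470 deeper cells that passed no gate had Pfkp at 149 CPM (132 to 166).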
